A study of Mus musculus with 4 samples.

Results

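The Dlk1-Dio3 imprinted cluster on mouse chromosome 12 carries one of the longest runs of microRNA (miRNA) genes in the mouse genome. Its members were taken here by position, as the miRNA gene rows of the deposited table that start in a window of chromosome 12 from Dlk1 to just past the noncoding gene Mirg, and miRNA genes closer to Dio3 were not included. There were 66 such genes of 2207 miRNA genes and 55573 genes in all. The first started at base 109544541 and the last ended at base 109747960 of chromosome 12 (build GRCm38), a span of 203420 bases, and 59 lay on the plus strand and 7 on the minus strand.

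The libraries were made from ribosome-protected RNA of primary myoblasts, muscle precursor cells grown from the hind-limb muscle of 3-week-old mice, collected on day 2 of proliferation with 10 ug/ml FGF. The eIF5A-KO group (2 libraries, KO1 and KO2) came from tamoxifen-induced Pax7 CreERT2/+; eIF5A f/f mice, and the WT group (2 libraries, WT1 and WT2) from control littermates. The genotype of the controls is given as Pax7 CreERT2/+ in one place of the methods and legends and as Pax7 +/+; eIF5A f/f in another. Cells of both groups were treated with cycloheximide, a drug that holds ribosomes on mRNA. The Cre enzyme of this line is driven by Pax7, a gene of muscle stem cells, and other cell types in such a culture keep Eif5a. The sample titles name Polysome-Seq, whereas the protocol describes digestion with RNase I and recovery of protected fragments.

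The libraries held between 642429 and 704006 reads. Eif5a was not lower in the libraries labelled KO, with 34.9 and 65.2 RPKM (reads relative to gene length and to the library size set by the authors) in WT1 and WT2 against 60.3 and 59.4 in KO1 and KO2, a log2 fold change of 0.32 ± 0.48 (SE, adjusted p = 0.827, limma). All levels below are therefore given for the libraries as labelled. The WT2 library stood apart, since miRNA genes took 16.8% of its reads against 4.30% in WT1, 2.31% in KO1 and 2.85% in KO2. Protein-coding genes took 41.5% and 33.9% of the reads in WT1 and WT2 and 65.4% and 59.2% in KO1 and KO2. The summed RPKM of 6 myoblast markers (Myod1, Myf5, Pax7, Myog, Des and Cdh15) was 299 and 172 in the WT libraries and 66.5 and 107 in the libraries labelled KO, and no marker of this list was at 0 in every library. The summed level of 6 fibroblast markers was 444 and 250 against 750 and 327, that of 4 endothelial markers 102 and 95.1 against 131 and 106, and that of 5 immune markers 28.4 and 38.5 against 25.0 and 25.9, although its members Adgre1 (0.512 and 1.97 against 4.43 and 4.21 RPKM) and Csf1r (0.287 and 0 against 1.15 and 1.29 RPKM) went the other way. Of 4 neuron markers, Rbfox3 was at 0 in every library, and the list reached at most 2.49. The part of these differences in the miRNA values was not tested, and in bulk libraries fewer cells of a type and less RNA per cell cannot be told apart. The protocol also selects fragments by size on a gel, and the part of that step in the miRNA share of each library was not tested.

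As background, a miRNA gene is transcribed as part of a long RNA, from which the enzyme Drosha cuts a hairpin. Dicer1 then cuts the hairpin into a short duplex, and one strand (arm) is loaded onto an Argonaute protein and pairs with mRNAs through its seed, bases 2 to 8. The cluster is imprinted: its noncoding RNAs Meg3, Rian and Mirg, and the miRNAs within them, are made from the chromosome inherited from the mother, while Dlk1, Rtl1 and Dio3 are made from that of the father. In muscle the locus is active in stem cells and during growth and regeneration, and Mef2 factors are among its known activators.

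Mature sequences were found in RefSeq (GRCm38.p6) for 60 of the 66 members, with 112 arms and 102 distinct seeds. The arms below belong to the members on which the results turn: those with the most reads, the 2 members with the highest and 2 with low fold changes, and the pairs whose arms are most alike. Each is written 5′ to 3′ with the seed in capitals.
mmu-miR-379-5p: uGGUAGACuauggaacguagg
mmu-miR-379-3p: uAUGUAACaugguccacuaacu
mmu-miR-411-5p: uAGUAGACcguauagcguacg
mmu-miR-411-3p: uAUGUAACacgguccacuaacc
mmu-miR-541-5p: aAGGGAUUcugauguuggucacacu
mmu-miR-382-5p: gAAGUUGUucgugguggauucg
mmu-miR-381-3p: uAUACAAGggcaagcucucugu
mmu-miR-300-3p: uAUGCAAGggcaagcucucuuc
mmu-miR-370-3p: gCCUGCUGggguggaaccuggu
mmu-miR-495-3p: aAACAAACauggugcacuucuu
mmu-miR-543-3p: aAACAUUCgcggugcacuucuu
mmu-miR-329-3p: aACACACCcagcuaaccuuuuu
mmu-miR-673-3p: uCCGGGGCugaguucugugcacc
The 3p arms of Mir379 and Mir411 were identical at 20 of 22 positions and shared the seed AUGUAAC, with the differences U10C and U22C (miR-379 base first, positions counted from the 5′ end). The 3p arms of Mir300 and Mir381 were identical at 19 of 22 positions, with 1 difference in the seed (G4A) and 2 at the end (U21G and C22U, miR-300 base first). The 3p arms of Mir543 and Mir495 were identical at 18 of 22 positions, with U6A, U7A, G9A and C10U (miR-543 base first). Across the cluster 10 seeds were shared by arms of 2 members each, among them GGUAGAC in the 5p arms of Mir379 and Mir1193. The table counts reads per gene, so it does not show which arm the reads came from, and a read on such a gene is not a measure of translation.

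Reads were counted on 27 of the 66 members, and the other 39 were listed at 0 in all 4 libraries. For the 12 of these that were clear of exons of other genes, a 0 allows up to 3 reads per library. For the overlapped ones it sets no such limit. The cluster held 3286 reads over the 4 libraries, of which 2944 (89.6%) lay on 5 members, Mir379, Mir541, Mir411, Mir382 and Mir381. Only 12 members reached 20 reads and 15 had between 1 and 19, and 15 members had reads in every library. By reads summed over the 4 libraries, of which WT2 held the most miRNA reads, Mir379 ranked 17 among all miRNA genes.

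The reads were concentrated at the distal end of the cluster. The block from Mir379 to the last member (bases 109709060 to 109747960) held 44 members, 22 of them with reads, and 3198 of the 3286 reads. In the block from Meg3 to Rtl1 (bases 109544541 to 109595397), 4 of 17 members had reads, 45 in all, of which Mir673 held 24. Within the block around Rian (bases 109611500 to 109682273) only Mir370 of 5 members had reads, 43 in all.

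Whether a member had reads followed its overlap with exons of other genes in the GENCODE M21 annotation. All 19 members wholly inside another exon were listed at 0, as were 8 of 11 partly overlapped members and 12 of the 36 clear members. The members wholly inside exons included Mir127, Mir434 and Mir136, which lie opposite the exon of Rtl1, and Mir134, Mir485, Mir377 and Mir410, which lie in exons of Mirg. Of the overlapped members, 12 overlapped only a miRNA gene on the opposite strand, such as Mir299a with Mir299b and Mir409 with Gm24321, and all 12 were at 0. Mir136 and Mir3071, also at 0, overlapped each other as well as Rtl1. The partly overlapped members with reads were Mir382, Mir369 and Mir412, each touching an exon of Mirg by 2, 1 and 12 bases. Outside the cluster the same held, with 385 of 385 wholly overlapped miRNA genes at 0, compared with 1335 of 1577 clear ones (84.7%). A value of 0 for an overlapped member is therefore not read as absence of the miRNA.

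**Figure D1:**
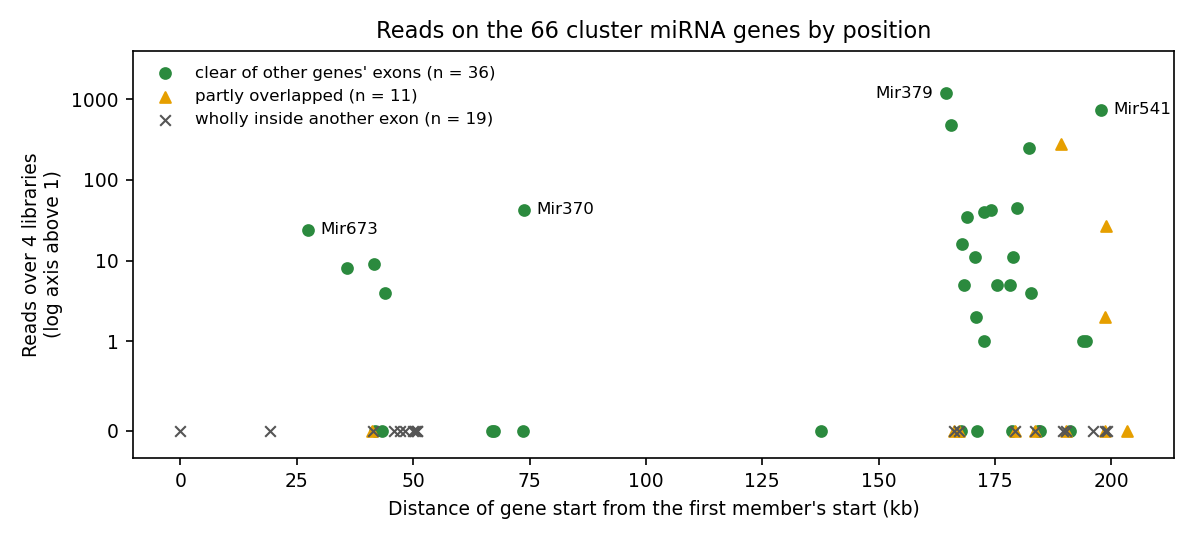
Reads summed over the 4 libraries (vertical axis, logarithmic above 1) for each of the 66 members against the distance of its start from that of the first member in kb, with symbols for overlap with exons of other genes. The members with most reads lie in the distal block that starts with Mir379, and all 19 members wholly inside another exon sit at 0.

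As a whole the cluster gave fewer reads in the libraries labelled KO. It held 732 reads in WT1 and 1792 in WT2, compared with 377 in KO1 and 385 in KO2, which were 1214 and 3804 against 415.7 and 476.7 reads per 1000000 of the authors' library size. The groups did not overlap, and the means were 2509 ± 1831 (SD, n = 2) in WT and 446.2 ± 43.1 (SD, n = 2) in KO, a log2 ratio of -2.49. The ratio depended on WT2 and was -1.44 without it. With 2 libraries a group, an exact two-sided permutation test cannot give a p below 0.333.

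As a share of all miRNA reads, the cluster overlapped between the groups. It took 2.62% of the miRNA reads in WT1 (95% Wilson interval 2.44 to 2.82), 1.66% in WT2 (1.59 to 1.74), 2.31% in KO1 (2.09 to 2.56) and 2.08% in KO2 (1.88 to 2.29). The group means were 2.14 ± 0.681% in WT and 2.20 ± 0.167% in KO (SD, n = 2 each), and both KO values lay between those of the WT libraries. The miRNA genes outside the cluster were lower as well, with 45060 and 225145 reads per 1000000 of that size in the WT libraries and 17550.4 and 22471.1 in the libraries labelled KO. Such intervals, and the floor of 3 reads, reflect counting error alone, as PCR copies of a molecule are counted too.

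In the test on single genes, limma on log2(RPKM + 1) over the 9179 genes with at least 20 reads, 12 members could be tested. At an unadjusted p under 0.05, 7 of the 12 were lower in the libraries labelled KO, where the background over all tested genes was 5.43%, and none was higher (background 4.01%). After Benjamini-Hochberg adjustment over all tested genes limma called no member, and the share called was 0% over all genes. The count of 7 was not stable when a single library was left out. Such fits leave 1 library in a group, and their spread comes from the other group alone, so their counts are not given. By the unadjusted rule, with all 4 libraries, 44 of the 107 other miRNA genes tested were lower and 0 were higher. The median log2 fold change was -2.13 over the 12 members, -1.79 over the other miRNA genes and 0.03 over all tested genes. That of the members was -1.003 without WT2 and -3.03 without WT1, and it was above 0 (0.21) when libraries were scaled to the summed reads of the other miRNA genes. In 8 of the 12 both WT libraries lay above both KO libraries, compared with 20.8% of all tested genes and with 76 of the 107 other miRNA genes. The remaining 54 members did not reach 20 reads, so the 12 do not stand for the whole cluster.

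Mir379, the first gene of the distal block (bases 109709060 to 109709125), had 348 reads in WT1, 650 in WT2, 102 in KO1 and 86 in KO2. Its levels were 8746 and 20904 RPKM in the WT libraries, compared with 1704 and 1613 in the libraries labelled KO. The KO libraries were close to each other and both lay far below WT1, the lower of the WT libraries. The log2 fold change of Mir379 was -3.03 ± 0.95 (SE, unadjusted p = 0.0117, adjusted p = 0.462, limma). It was -2.40 without WT2 and -3.66 without WT1. A single read in Mir379 was worth between 16.7 and 32.2 RPKM, so the counts, not the decimals of the RPKM values, set the precision.

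Mir411 (bases 109710175 to 109710256) lies next to Mir379 and shares a seed with it, but its values were closer between groups. Its reads numbered 72 and 247 in the WT libraries and 91 and 74 in the libraries labelled KO, or 1456 and 6393 RPKM against 1224 and 1117. WT1 was only slightly above both KO libraries, and WT2 alone was high. The log2 fold change of Mir411 was -1.38 ± 0.89 (SE, unadjusted p = 0.156, adjusted p = 0.613, limma), and -0.32 without WT2. The ratio of Mir379 to Mir411 reads, which no scaling between libraries can change, was 4.83 in WT1 and 2.63 in WT2, and 1.12 in KO1 and 1.16 in KO2 (exact two-sided permutation p = 0.333, the smallest possible). Other ratios computed overlapped between groups, namely Mir541 to Mir379 (0.371 and 0.68 against 0.676 and 1.21) and Mir382 to Mir381 (0.747 and 1.68 against 0.5 and 0.794). That of Mir370 to Mir379 did not (0.0115 and 0.0215 against 0.127 and 0.140).

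The other abundant members were Mir541, Mir382 and Mir381. Mir541 (bases 109742409 to 109742498) gave 2378 and 10424 RPKM in WT1 and WT2 and 845 and 1431 in KO1 and KO2, without overlap, and its log2 fold change was -2.18 ± 0.94 (SE, adjusted p = 0.529, limma) and -1.11 without WT2. Mir382 (bases 109733771 to 109733846) gave 1222 and 5027 RPKM against 247 and 440, a log2 fold change of -2.91 ± 0.82 (SE, adjusted p = 0.461, limma) and -1.89 without WT2. Mir381 (bases 109726822 to 109726896) gave 1659 and 3028 RPKM against 500 and 561, a log2 fold change of -2.08 ± 0.69 (SE, adjusted p = 0.485, limma). In each of the 3 the groups did not overlap, and WT2 was the highest library.

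The recovered reads were also fitted with limma-voom, which weights each value by its read depth. There 6 of the 12 members were lower at an unadjusted p under 0.05 (background 6.66%), and 3 passed at an adjusted p under 0.05 (background 0.425%). Of the 107 other miRNA genes 69 were lower before adjustment and 16 after it in this fit. The 3 members called were Mir379 (log2 fold change -3.05 ± 0.49, adjusted p = 0.00625, limma-voom), Mir382 (-2.91 ± 0.57, adjusted p = 0.0210, limma-voom) and Mir381 (-2.08 ± 0.45, adjusted p = 0.0371, limma-voom), each with SE. Mir541, with the second highest count, had an adjusted p of 0.0931 in limma-voom.

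**Figure D2:**
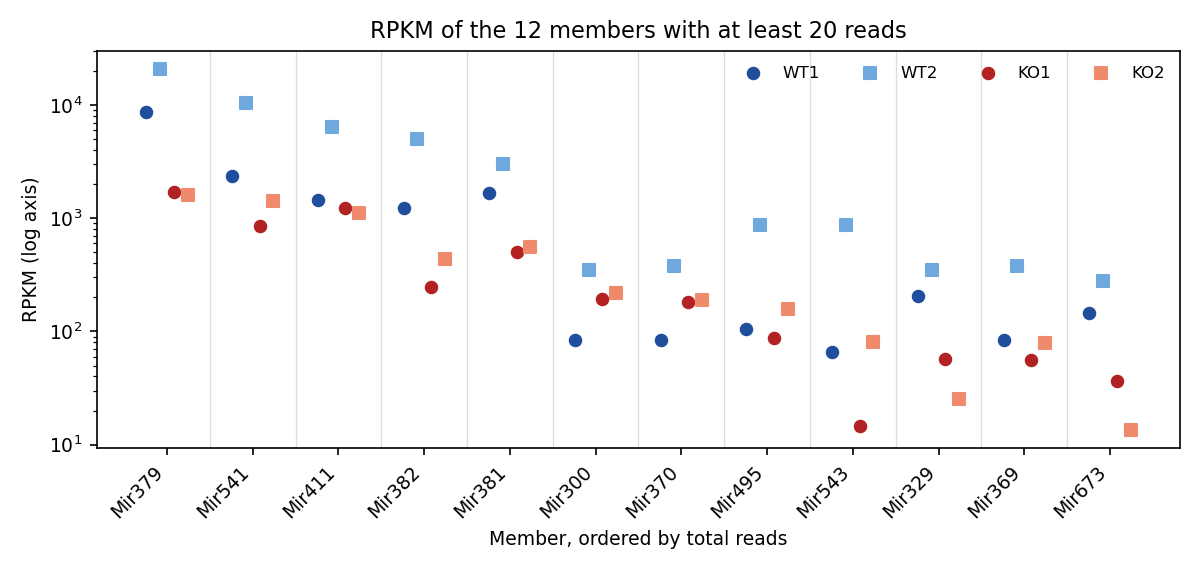
RPKM (log axis) of the 12 members with at least 20 reads in each library, with WT1 and WT2 in blue and KO1 and KO2 in red. In 8 members both blue points lie above both red points, while in Mir300 and Mir370 the WT1 point is the lowest.

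The less abundant members Mir300 and Mir370 had the highest log2 fold changes of the 12. Mir300 (bases 109724313 to 109724391) had 4 and 13 reads in the WT libraries and 14 and 14 in the libraries labelled KO, or 84.0 and 349 RPKM against 195 and 219. Mir370 (bases 109618258 to 109618336), the only member with reads near Rian, had 4 and 14 reads against 13 and 12, or 84.0 and 376 RPKM against 181 and 188. In both, the KO libraries lay between WT1 and WT2. Their log2 fold changes were 0.27 ± 0.69 (adjusted p = 0.904, limma) and 0.05 ± 0.71 (adjusted p = 0.987, limma), each with SE. Without WT1, which had 4 reads in each, the direction turned, to -0.75 and -1.02. The ratio of Mir300 to Mir381 reads, 2 genes with near-identical 3p arms, was 0.0533 in WT1, 0.121 in WT2 and 0.412 in both KO1 and KO2 (exact two-sided permutation p = 0.333).

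The 5 remaining tested members had between 24 and 43 reads each over all libraries. Mir673, from the proximal block, had 8 and 12 reads in the WT libraries and 3 and 1 in the libraries labelled KO. Mir329 had 12 and 16 reads against 5 and 2. Their log2 fold changes of -3.12 ± 0.59 (adjusted p = 0.305, limma) and -2.78 ± 0.56 (adjusted p = 0.343, limma) had the smallest p-values among the members in limma. In limma-voom their adjusted p-values were 0.503 and 0.376, above those of Mir379, Mir382 and Mir381. The groups did not overlap in either, though the KO counts lay near the floor of 3 reads. With 1 library left out, Mir673 ranged from -3.80 to -2.44 and Mir329 from -3.34 to -2.22. Mir543 had 3 and 31 reads against 1 and 5, and its groups overlapped in RPKM (log2 fold change -2.75 ± 1.14, adjusted p = 0.522, limma; -0.89 without WT2). Mir495, with a 3p arm like that of Mir543, had 4 and 26 reads against 5 and 8 (log2 fold change -1.37 ± 0.90, adjusted p = 0.617, limma), and without WT2 its direction turned, to 0.15. Mir369 had 4 and 14 reads against 4 and 5, with WT1 at 84.0 RPKM just above KO2 at 78.4 (log2 fold change -1.41 ± 0.70, adjusted p = 0.554, limma; -0.34 without WT2).

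The 15 members with 1 to 19 reads were below the filter of the test. They summed to 13 reads in WT1, 40 in WT2, 19 in KO1 and 13 in KO2, or 21.6, 84.9, 20.9 and 16.1 reads per 1000000, and only WT2 stood above the others. Mir323 had 1 and 5 reads in the WT libraries and 7 and 3 in the libraries labelled KO, Mir376b 1 and 7 against 2 and 1, and Mir494 0 and 9 against 1 and 1. Of the 15, 4 had reads only in the libraries labelled KO (Mir3070b, Mir154, Mir496a and Mir666, the first with 4 reads and the others with 1) and 1 only in the WT libraries (Mir679, with 2). With looser filters on low values Mir3070b was higher before adjustment, and Mir679 lower at an adjusted p under 0.05 in 1 of 2 such fits (with 11 of 11363 genes), each on reads at or near the floor of 3.

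Scaling the libraries to the miRNA genes outside the cluster, by the median of ratios over 135 such genes with reads in every library, moved the all-gene median of the log2 fold changes to 1.39. Most genes were then higher in the libraries labelled KO, so the values are read against the other miRNA genes, whose median was -0.05. The 12 members had a median of -0.38, which was -0.54 without WT1 and -0.018 without WT2. No member was lower at an unadjusted p under 0.05 (background 0.251%), and 2 were higher (background 39.3%), Mir300 with 2.01 ± 0.83 (SE, adjusted p = 0.0759, limma) and Mir370 with 1.79 ± 0.83 (SE, adjusted p = 0.0991, limma). Of the 107 other miRNA genes 4 were lower and 5 higher before adjustment. No member passed adjustment in this fit (background 7.85%), while 2 of those other miRNA genes did, on the higher side. Members did pass on this scale with the replicate number as a block. There Mir300 (adjusted p = 0.00735, limma) and Mir370 (adjusted p = 0.0149, limma) were higher and Mir673 lower (adjusted p = 0.0450, limma). In that fit 4473 of all 9179 genes were called higher and 29 lower, and of the 107 other miRNA genes 6 and 4. Without WT1, which leaves 1 WT library, the log2 fold changes of Mir300, Mir370 and Mir543 were 1.74, 1.47 and -2.13. With limma-voom on this scale 0 members were called, also at an unadjusted p under 0.05.

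On this scale the members spread to both sides of the other miRNA genes. Both WT libraries lay above both KO libraries in 3 of the 12 (background 0.61%), namely Mir379, Mir382 and Mir673, and the reverse held in 2 (background 71.7%), Mir300 and Mir370. The same counts over the 107 other miRNA genes were 28 and 21. The levels of Mir379 scaled in this way were 8021 and 6776 in WT1 and WT2 and 3602 and 2568 in KO1 and KO2, so the WT libraries, far apart before, came close together, and its log2 fold change was -1.28 ± 0.89 (SE, adjusted p = 0.243, limma). Mir382 had -1.16 ± 0.85 (SE, adjusted p = 0.261, limma) and Mir673 -1.40 ± 0.83 (SE, adjusted p = 0.173, limma). Mir541 (-0.43), Mir381 (-0.33) and Mir411 (0.37) lay nearer to the other miRNA genes, and Mir411 was above 0 on this scale and below 0 with the authors' library sizes. A fit on this scale over the miRNA genes alone, chosen after the data were seen, called no member, and Mir379 on the lower side and Mir300 and Mir370 on the higher side each had an adjusted p = 0.295 (limma).

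**Figure D3:**
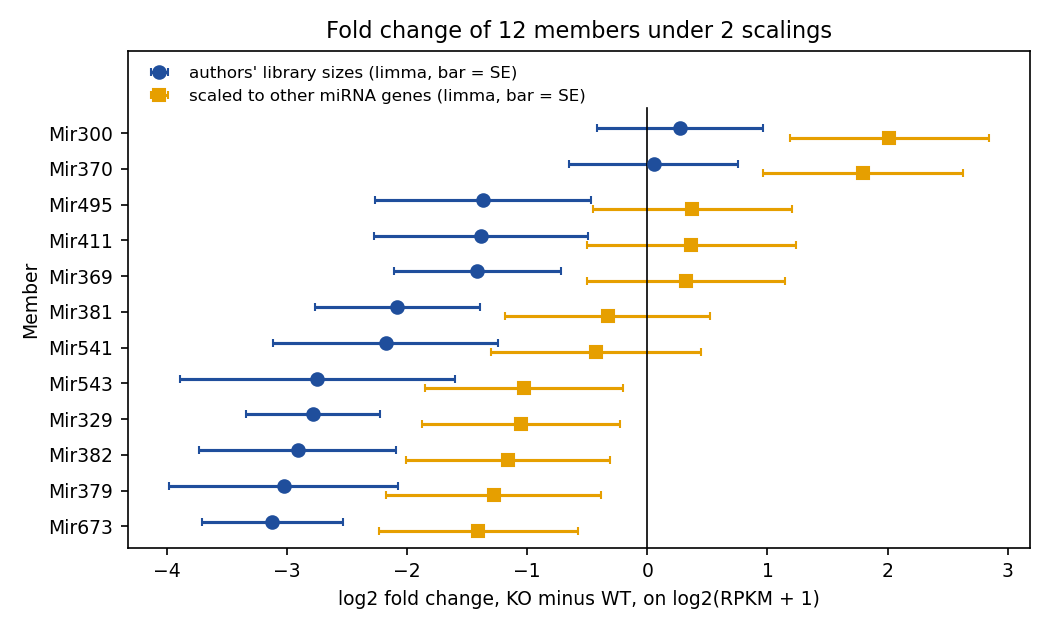
Log2 fold change, KO minus WT, of the 12 tested members with the authors' library sizes (circles) and after scaling to the other miRNA genes (squares), with bars for the SE. The median of the members is -2.13 for the circles and -0.38 for the squares, and Mir300 and Mir370 are the highest under both.

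The make-up of the cluster's own reads differed between libraries, and this is independent of any scaling. Mir379 took 47.5% of the cluster's reads in WT1 (95% Wilson interval 43.9 to 51.2) and 36.3% in WT2 (34.1 to 38.5), compared with 27.1% in KO1 (22.8 to 31.8) and 22.3% in KO2 (18.5 to 26.8). Mir411 took 9.84% and 13.8% in the WT libraries, compared with 24.1% and 19.2% in the libraries labelled KO. The intervals of the WT and KO libraries did not overlap for either, although those of WT1 and WT2 did not overlap for Mir379 or Mir411 either, so libraries of 1 group also differed beyond counting error. The shares have a fixed total, so a lower share of Mir379 raises those of other members. Mir411 itself was not higher with the authors' library sizes (log2 fold change -1.38).

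The shares of Mir300 and Mir370 were small and higher in the libraries labelled KO. Mir300 took 0.546% and 0.725% against 3.71% and 3.64%, and Mir370 took 0.546% and 0.781% against 3.45% and 3.12%. The share of Mir541 overlapped between groups, at 17.6% and 24.7% against 18.3% and 27.0%. Mir381 overlapped too, at 10.2% and 5.97% against 9.02% and 8.83%. Mir382 did not, at 7.65% and 10.0% against 4.51% and 7.01%. However, its counting interval in KO2 overlapped those of both WT libraries, and that in KO1 overlapped that of WT1.

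**Figure D4:**
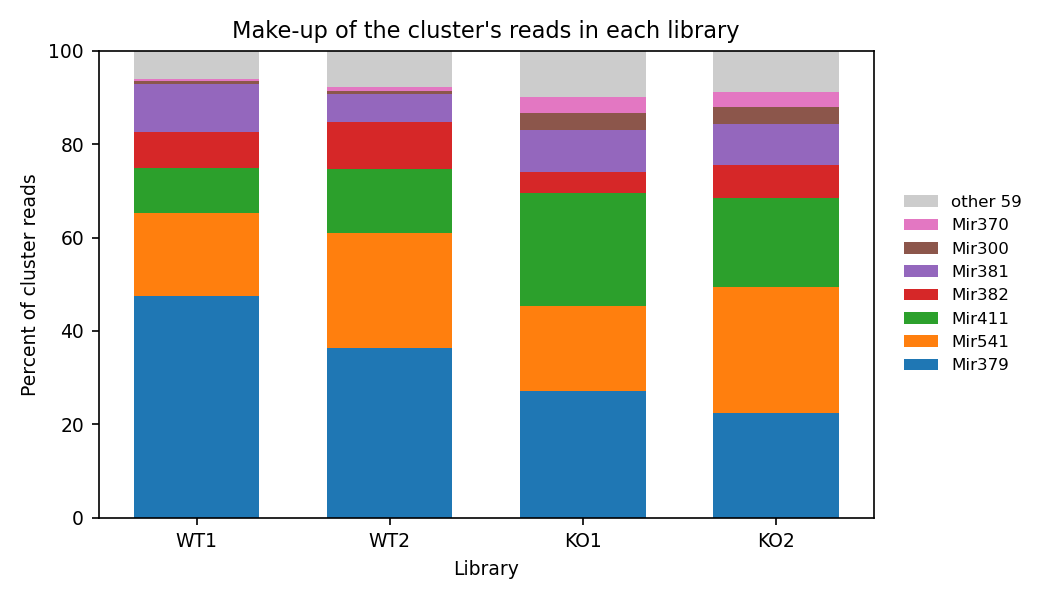
Percent of the cluster's reads on each of 7 members and on the other 59 together, in each library, with bars stacked to 100%. Mir379 takes 47.5 and 36.3% in the WT libraries and 27.1 and 22.3% in those labelled KO, while Mir411 takes 9.84 and 13.8% against 24.1 and 19.2%.

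The long RNAs of the locus were barely read in any library. Rian had 9 and 6 reads in WT1 and WT2 and 13 and 7 in KO1 and KO2, and was the only one of 8 locus genes tested (log2 fold change -0.08 ± 0.36, adjusted p = 0.95, limma). Meg3 had 5, 2, 3 and 0 reads in WT1, WT2, KO1 and KO2, Mirg, the host of the distal block, 0, 3, 0 and 0, and the paternal genes Dlk1 and Rtl1 0, 0, 7 and 2, and 3, 0, 2 and 0. Genes other than Rian had too few reads for the test.

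Of 20 genes for making or using miRNAs, 16 were tested, and 1 of them had an unadjusted p under 0.05, on the higher side, a share near the 4.01% of all tested genes. This was Xpo5, which carries hairpins out of the nucleus, with 7.50 and 7.74 RPKM in the WT libraries and 19.3 and 16.8 in the libraries labelled KO (log2 fold change 1.14 ± 0.41, adjusted p = 0.492, limma). Drosha had a log2 fold change of -0.71 ± 0.41 (adjusted p = 0.590, limma), Dicer1 -0.36 ± 0.46 (adjusted p = 0.80, limma) and Ago2, the Argonaute that can cut its targets, -0.83 ± 0.49 (adjusted p = 0.595, limma). Among 8 regulators of the locus 7 were tested and none was called. Their log2 fold changes ran from -0.82 ± 0.47 for Mef2d (adjusted p = 0.582, limma) to 0.86 ± 0.42 for Dnmt1, the maintenance DNA methyltransferase (adjusted p = 0.554, limma).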

How the data were processed

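Primary myoblasts were profiled as 2 WT libraries and 2 libraries labelled KO, grouped and numbered as in the titles of the samples. The authors removed low-quality, rRNA and tRNA reads, mapped with Tophat2, counted genes of an Ensembl annotation with HTSeq (mm10 per the labels), and deposited RPKM values with gene lengths. Tool versions, strand and the treatment of reads that overlap several genes were not given in the sources used here, so reads of overlapping or near-identical genes could not be traced, and short reads that map to several places could be lost. RPKM times gene length gave whole reads (within 0.01) for 100% of values in each library. The library sizes the authors divided by were not the read totals, and ranged from 471136 (WT2) to 906990 (KO1).

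The test was limma 3.58.1 (R 4.3.3), with a mean-variance trend, on log2(RPKM + 1). It took genes with at least 20 recovered reads, with Benjamini-Hochberg adjustment over all of them and a threshold of 0.05. This scale understates changes of genes with a low RPKM. It does little of this on short genes such as Mir379, where 1 read was worth at least 16.7 RPKM. A 0 beside a single read can then give a large change, as in Mir679 (-4.72 on 2 reads in all). The fit was tested on simulated data. Alternatives were limma-voom on the recovered reads, other pseudocounts, filters and scalings, a replicate block and leaving out each library. Nothing in the labels says that the libraries came from separate animals or cultures, so p-values measure the spread between libraries, which may be technical. Members, lists and rules were chosen with earlier results of these data known. Named members were Mir379, the 15 with most reads, those called by limma or limma-voom, and the 3 lowest and 3 highest log2 fold changes. Overlaps were taken from GENCODE M21, which is not the authors' annotation release but held 99.7% of the table's gene IDs and all 66 members at the same coordinates. Intervals are 95% Wilson intervals, and the floor is 3 reads. Counts used Python 3.11.15 with pandas 2.3.3 and scipy 1.17.1.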

Additional observations from a re-analysis of the deposited data

How the results depend on the processing

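Scaled to the other miRNA genes by the median of ratios, the count of members lower at an unadjusted p under 0.05 went from 7 to 0 and that of members higher from 0 to 2, the median log2 fold change of the members from -2.13 to -0.38, and the log2 ratio of the summed signal from -2.49 to -0.52. Scaled to the summed reads of those genes, the counts were 0 and 1 (2950 of 9179 genes were higher), the median was 0.21 and the summed signal 0.034. Without the most read of them, Mir10b, the counts were 0 and 1 (3217 of 9179 genes were higher), the median was 0.073 and the summed signal -0.087. Under these 3 miRNA scalings in turn, Mir369 had 0.32, 0.91 and 0.77, Mir411 0.37, 0.96 and 0.82, and Mir495 0.37, 0.96 and 0.83; under the last 2, Mir541 had 0.16 and 0.024 and Mir381 0.26 and 0.12. Quantile normalization gave a median of -1.16, Mir541 -0.51 and Mir411 0.38, and equal totals over protein-coding genes gave Mir370 -0.061. With a minimum of 50 reads, which leaves 5 members, 4 were lower, beside 352 of 6056 genes. When the filter was a mean level of 1 RPKM, or when every gene above 0 was taken, 27 members were tested, and 10 were lower and 1 higher (Mir3070b) at an unadjusted p under 0.05, beside 507 and 325 of 11363 genes with the former filter and 533 and 403 of 18961 with the latter; 1 was lower at an adjusted p under 0.05 with the former (Mir679, with 2 reads in all, among 11 of 11363 genes). Limma-voom called 3 members lower. Relative to the other miRNA genes, the median was 0.16 with either of these 2 filters, and the former called 2 members lower (Mir540 and Mir679) and 2 higher (Mir487b and Mir3070b) at an adjusted p under 0.05, each with 2 to 9 reads in all, beside 25 and 196 of all 11363 genes. Leaving out 1 library leaves 1 in its group, and the spread then comes from the other group alone, so only effect sizes are given. The median of the members then ranged from -3.03 to -1.003, and relative to the other miRNA genes from -0.54 to -0.018. The difference in the cluster's share of miRNA reads ranged from -0.43 to 0.53 percentage points around 0.05, and the summed signal from -3.09 to -1.44. The ranges of Mir495 (-2.89 to 0.15), Mir370 (-1.02 to 1.13) and Mir300 (-0.75 to 1.29) included 0. Of the alternatives for single members to the fit with the authors' library sizes, 186 kept their direction and their side of the adjusted threshold, and 18 turned the direction. The 3 members of limma-voom passed that threshold, and passes in fits without 1 library are left out. Alternatives of the fit on the miRNA scale are not in this tally, where some members passed as given above. A lost call at the unadjusted threshold is not counted either.

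The replicate numbers pair nothing that the labels name, and deviations of same-numbered libraries correlated at 0.11 over 2 pairs. With the replicate block 8 members (531 of 9179 genes) were lower at an unadjusted p under 0.05 and 0 (4 genes) at an adjusted one, with the median at -2.13; relative to the other miRNA genes the block, after adjustment, called 2 members higher and 1 lower. The fits over miRNA genes alone, and limma-voom (0 members called) and the block on the miRNA scale, were added after the data were seen. Of the 54 members under 20 reads, 27 overlapped other exons and were listed at 0, so depth is not shown to be their limit, and the other 27 had too few reads for the test. The cause of the differences between settings was not tested.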
